A study of Homo sapiens with 17 samples.

Results

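The genes examined here carry out DNA replication and the passage of cells out of G1 phase. They were given as a list of 46 names, drawn up with earlier results of these data known. The rule for the comparisons already held that these genes are far lower in untreated WSU-DLCL2 replicate 3 than in replicates 1 and 2. In all, 45 of the 46 matched 1 of the 63677 genes in each deposited table. UHRF1 matched no identifier, so its reads were not analysed, and it enters only the promoter search below. They fall into 6 groups by role: origin licensing (ORC1, ORC6, CDC6, CDT1 and MCM2 to MCM7), helicase activation (MCM10, CDC45, CDC7 and GINS1 to GINS4), polymerases and fork, nucleotide supply, G1/S control, and chromatin and S-phase surveillance. Read counts of total RNA came from 2 established human lymphoma cell lines, Karpas-422 and WSU-DLCL2. The 5 groups of 3 libraries were Karpas-422 given A-485 for 48 h, untreated Karpas-422, WSU-DLCL2 given A-485 for 48 h, 3 WSU-DLCL2 clones with the label BCL11A knockout, and untreated WSU-DLCL2. The groups called untreated have no treatment in their titles, while the rule for the comparisons calls them DMSO. Whether they were given that solvent is not settled here. A-485 blocks the acetyltransferases p300 and CBP, and the BCL11A protein is a zinc-finger regulator of transcription in B cells. The labels name no unedited clone beside the knockout clones, so picking single cells and losing BCL11A cannot be told apart. Apart from the clones, the labels do not say whether replicates are separate cultures. The p-values therefore rest on spread among libraries that may be technical only.

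Replication starts in G1, when the origin recognition complex, CDC6 and CDT1 load the ring-shaped MCM helicase onto DNA. The kinase CDC7 and cyclin E with its partner CDK2 then let CDC45 and the GINS complex join the ring and start unwinding, and polymerases held by the PCNA clamp, which RFC loads onto DNA, copy both strands. Most of these genes are transcribed in a wave at the G1/S boundary under the E2F factors, which the RB family holds back in G1.

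E2F proteins recognise short GC-rich sites near the start of many of these genes. RefSeq windows of 300 bases (GRCh38.p14, 250 bases before the start to 50 after it) were available for 41 of the 46 genes. They were searched on both strands for 4 spellings of the site, TTTCCCGC, TTTCGCGC, TTTGCCGC and TTTGGCGC. At least 1 of them occurred in 24 of the 41 genes (58.5%), UHRF1 among them, and in 1090 of all 27305 genes with a window (3.99%). Of the genes that fell with A-485 in Karpas-422, 12 of 18 held one, against 6 of 10 that rose and 5 of 10 that did not pass the test. A match is letters in a window and not a binding site. The windows below, 120 bases before to 30 after the start, show a gene that fell (MCM2), one with a high level that fell (RFC3), one that was not called (E2F1) and a pair that rose (POLE, which holds a match, and ORC6, which holds none). Capitals mark the matches, read on either strand.
MCM2 promoter, chr3:127598291-127598440, plus strand: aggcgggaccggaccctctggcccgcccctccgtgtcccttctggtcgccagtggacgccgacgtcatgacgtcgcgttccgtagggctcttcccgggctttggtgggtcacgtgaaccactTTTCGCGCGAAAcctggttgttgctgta
RFC3 promoter, chr13:33818029-33818178, plus strand: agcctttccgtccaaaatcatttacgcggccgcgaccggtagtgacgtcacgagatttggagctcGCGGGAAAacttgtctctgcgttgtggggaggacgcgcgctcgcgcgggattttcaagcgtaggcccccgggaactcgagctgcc
E2F1 promoter, chr20:33686356-33686505, minus strand: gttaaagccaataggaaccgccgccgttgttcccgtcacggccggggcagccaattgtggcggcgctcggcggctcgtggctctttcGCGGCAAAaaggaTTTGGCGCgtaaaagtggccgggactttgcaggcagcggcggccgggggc
POLE promoter, chr12:132687313-132687462, minus strand: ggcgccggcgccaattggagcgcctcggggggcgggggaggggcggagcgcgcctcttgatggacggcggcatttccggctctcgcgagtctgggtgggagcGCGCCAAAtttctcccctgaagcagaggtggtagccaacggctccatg
ORC6 promoter, chr16:46689539-46689688, plus strand: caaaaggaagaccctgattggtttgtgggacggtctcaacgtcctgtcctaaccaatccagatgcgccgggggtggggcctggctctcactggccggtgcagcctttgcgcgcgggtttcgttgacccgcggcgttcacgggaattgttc
In MCM2 the capitals hold a match on each strand that overlap, in E2F1 there are 2 separate matches, and RFC3 and POLE hold 1 each.

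The libraries were of 2 kinds. The 9 shallow ones (both Karpas-422 groups and the A-485 group of WSU-DLCL2) had between 6689320 and 8897051 counts assigned to genes and 43.0% to 55.5% of reads without a unique alignment. The 6 deep ones (clones and untreated WSU-DLCL2) had 21233752 to 37286727 counts and 7.73% to 9.24% such reads. A-485 in WSU-DLCL2 is therefore not set against untreated WSU-DLCL2, because the library kind changes together with the treatment and their effects cannot be told apart. Untreated WSU-DLCL2 replicate 3 was sequenced in 3 runs. By title it is the untreated line, by its treatment entry A-485, and the title decided its group. Of the B cell markers, CD79A stood at 377 to 729 CPM (read counts scaled by the library total) in all 15 libraries, while MS4A1 stood at 4.32 to 7.04 CPM in Karpas-422, 39.2 to 42.9 CPM in WSU-DLCL2 with A-485 and 2254 to 3760 CPM in the deep WSU-DLCL2 libraries. The T cell gene CD3G stood at 489 to 617 CPM in Karpas-422 and at 0 to 0.149 CPM in WSU-DLCL2, with CD2 at 0 in all libraries. Erythroid markers were at 0 in every library.

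Summed over the 45 genes, the libraries of Karpas-422 with A-485 held 7055, 7001 and 6887 CPM, against 8931, 8925 and 8879 CPM in untreated Karpas-422. WSU-DLCL2 with A-485 held 7008, 7132 and 7108 CPM. The knockout clones held 8895, 7655 and 8961 CPM, against 8273, 8457 and 2146 CPM in untreated WSU-DLCL2. The sum was thus lower with A-485 in every Karpas-422 library, and replicate 3 of untreated WSU-DLCL2 stood far below the other 14 libraries.

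**Figure D1:**
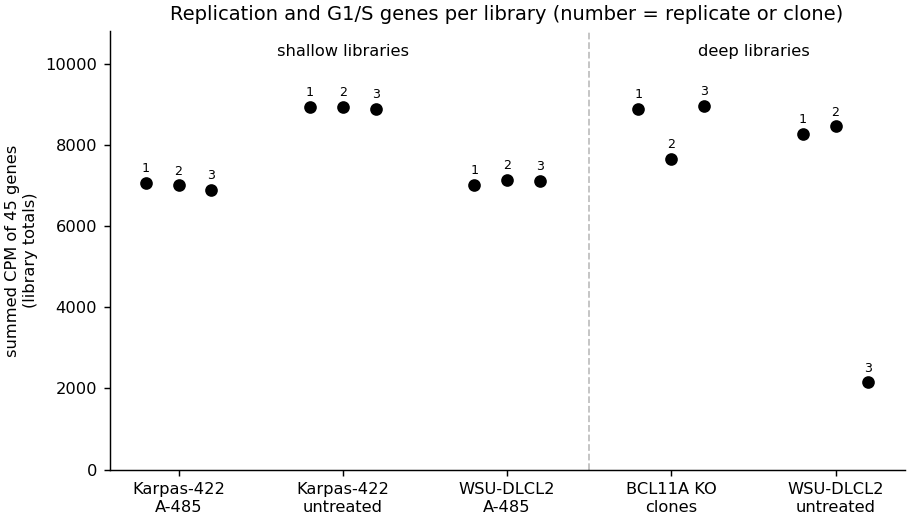
Summed CPM (over library totals) of the 45 replication and G1/S genes in each of the 15 libraries. Points are single libraries and the number above each is its replicate or clone. The dashed line parts the shallow from the deep libraries, and untreated WSU-DLCL2 replicate 3, at 2146 CPM, stands below all others.

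The first comparison set Karpas-422 given A-485 for 48 h against untreated Karpas-422. MCM2, the licensing factors CDC6 and CDT1, the clamp PCNA, the flap endonuclease FEN1 and both histone chaperone subunits CHAF1A and CHAF1B fell, MCM2 most, by 1.26 ± 0.06 on the log2 scale (SE, n = 3 libraries per group). ORC6, the clamp loader subunit RFC4 and cyclin E2 (CCNE2) rose, ORC6 most, 7.38-fold (11.7-fold without untreated replicate 1). The transcription factor E2F1 did not pass the test. Of the 43 genes with enough counts to be tested, 14 rose, 18 fell and 11 were not called, called meaning a Benjamini-Hochberg adjusted p under 0.05 in edgeR's quasi-likelihood test over 11846 genes. Among all tested genes 71.4% were called, 37.6% up and 33.7% down, so the counts of these genes stand near the background in both directions. CCNE1 and SLBP had too few counts for the test, with 11, 21 and 10 counts of CCNE1 with A-485 and 9, 4 and 1 without. The median log2 fold change was -0.27 over the 43 genes and 0.08 over all tested genes. In bulk RNA, fewer cells in S phase and less of these RNAs per cell cannot be told apart. For 32 of the 43 genes no A-485 library overlapped an untreated one, as for 74.7% of all genes. CPM of a comparison are TMM-scaled from here on.

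**Figure D2:**
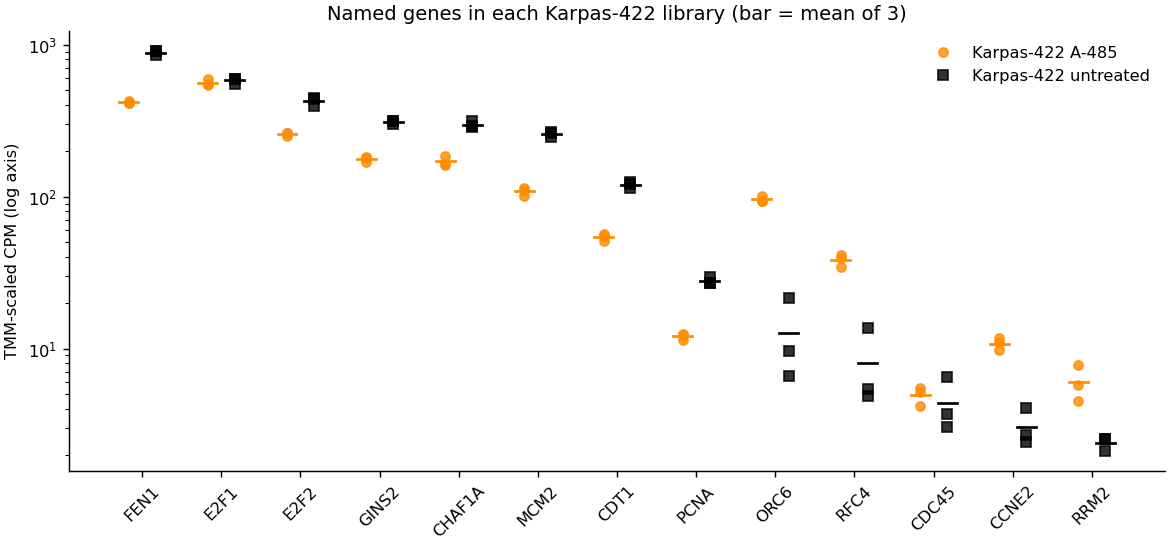
TMM-scaled CPM of 13 genes in each Karpas-422 library, on a log axis. Circles are the A-485 libraries, squares the untreated libraries and bars the means of 3. FEN1, E2F2, GINS2, CHAF1A, MCM2, CDT1 and PCNA lie lower with A-485 in every library, ORC6, RFC4, CCNE2 and RRM2 lie higher, and E2F1 and CDC45 overlap.

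Of the 10 origin licensing genes 5 fell and 4 rose. Over all tested genes 37.6% rose and 33.7% fell. The small counts of this role and those that follow are therefore not read as particular to a role. MCM2, a subunit of the MCM ring, stood at 109, 114 and 102 CPM with A-485, against 262, 248 and 266 CPM untreated. CDC6, the ATPase that brings the ring to the origin, stood at 387, 392 and 391 CPM with A-485, against 796, 892 and 861 CPM untreated. For both, every A-485 library lay below every untreated one. CDT1, the partner that escorts the ring, stood at 57.0, 51.1 and 55.3 CPM with A-485, against 120.04, 114 and 126 CPM untreated. MCM6 fell by 0.91 ± 0.06, and its 1504, 1516 and 1487 CPM with A-485 lay below its 2533, 3049 and 2893 CPM untreated. The groups were apart for all 4 of these genes, and the smallest adjusted p among them was 2.34e-10, for MCM2. ORC1, the largest origin recognition subunit, was called down by 0.75 ± 0.26 with overlapping groups.

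ORC6, the smallest subunit of the same complex, went the other way. It stood at 94.1, 100.2 and 93.7 CPM with A-485, against 21.5, 9.69 and 6.58 CPM untreated (log2 fold change 2.88 ± 0.34, adjusted p = 0.000569). The 3 A-485 libraries were close together, while the untreated ones spread, replicate 1 being highest. Replicate 1 was the highest untreated library for every gene called up except CDC7 and GINS4, so for RFC4 and MCM4 too. Among the genes that fell it was the lowest untreated library for CDC6, MCM6 and others, but the highest for PCNA. Without replicate 1 the log2 fold change was 3.54 for ORC6, 2.91 for RFC4, in place of 2.22, and 1.96 for MCM4, in place of 1.25. MCM4 stood at 18.1, 17.3 and 18.9 CPM with A-485, against 12.8, 4.69 and 4.56 CPM untreated. MCM3 and MCM5 rose by less, 0.43 ± 0.18 and 0.32 ± 0.09, and MCM7 was not called (-0.29 ± 0.19). Within 1 hexamer, 2 subunits fell, 3 rose and 1 was not called.

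Of 7 helicase activation genes, 3 fell and 2 rose. GINS2 stood at 181, 179 and 168 CPM with A-485, against 298, 313 and 314 CPM untreated, and fell by 0.81 ± 0.05. GINS1 fell by 0.67 ± 0.06, while GINS4 rose by 0.58 ± 0.21 and GINS3 was not called. MCM10, which helps the new helicase start, fell by 0.59 ± 0.21. CDC7, the kinase that fires origins, rose from few reads, with 1.89, 2.55 and 1.42 CPM with A-485 against 0.672, 1.06 and 0.675 CPM untreated. CDC45, the helicase cofactor, had 5.22, 4.22 and 5.46 CPM with A-485, against 6.45, 3.03 and 3.71 CPM untreated. These values overlap, and the difference of 0.14 ± 0.26 was not called (adjusted p = 0.629). Without untreated replicate 2 the CDC45 difference was -0.08, and without untreated replicate 1 it was 0.56 and called.

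The polymerase and fork genes divided evenly, 5 up, 5 down and 3 not called of 13. FEN1, which trims Okazaki fragments, stood at 427, 413 and 414 CPM with A-485, against 849.6, 904 and 902 CPM untreated. Its fall of 1.08 ± 0.05 had the smallest adjusted p of all 43 genes, 1.96e-10. PCNA stood at 12.3, 11.4 and 12.5 CPM with A-485, against 29.7, 27.1 and 27.0 CPM untreated, a fall of 1.21 ± 0.11. Both genes lay lower in every A-485 library than in any untreated one. The clamp loader showed both directions in its own subunits. RFC3 fell by 0.86 ± 0.05, with 1335, 1385 and 1342 CPM with A-485 against 2469, 2479.97 and 2431 CPM untreated. RFC4 rose by 2.22 ± 0.31, with 34.6, 39.6 and 41.2 CPM with A-485 against 13.7, 4.85 and 5.40 CPM untreated. RFC2 fell by 0.96 ± 0.31 at 0.777 to 1.11 CPM with A-485 and 1.67 to 2.19 CPM untreated, and RFC5 was not called. Of the polymerases, the catalytic subunit of the leading-strand enzyme, POLE, rose by 1.41 ± 0.21. It had 6.21, 6.08 and 6.57 CPM with A-485, against 2.69, 1.97 and 2.36 CPM untreated. POLA1, the catalytic subunit of the primer-extending polymerase, fell by 0.97 ± 0.24. Its partner POLA2 and the primase PRIM1 rose by 0.61 ± 0.14 and 1.30 ± 0.33 (PRIM1 by 1.91 without untreated replicate 1). POLA1 and PRIM1 rest on few reads. POLA1 had 16 to 20 counts per library with A-485 and 21 to 28 untreated, and PRIM1 32 to 49 and 5 to 19. LIG1, the ligase that joins Okazaki fragments, rose by 1.18 ± 0.22.

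Of the 4 nucleotide supply genes none fell and 2 rose, where 33.7% of all tested genes fell and 37.6% rose. RRM2, the regulated subunit of ribonucleotide reductase, stood at 4.55, 5.78 and 7.79 CPM with A-485, against 2.55, 2.12 and 2.53 CPM untreated (1.33 ± 0.26). TYMS, thymidylate synthase, rose by 0.75 ± 0.17. The groups were apart for both. RRM1 and the thymidine kinase TK1 were not called (0.11 ± 0.32 and -0.44 ± 0.28).

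Among the G1/S regulators, E2F2, an activating E2F, fell by 0.72 ± 0.06, with 264, 263 and 251 CPM with A-485 against 395, 447 and 439 CPM untreated. The phosphatase CDC25A, which releases CDK2 from inhibition, fell by 0.96 ± 0.16. CCNE2 rose by 1.80 ± 0.20, with 11.0, 11.7 and 9.71 CPM with A-485 against 4.03, 2.42 and 2.70 CPM untreated. E2F1 stood at 591, 546 and 542 CPM with A-485, against 598, 554 and 598 CPM untreated. Its groups overlap, and the difference of -0.06 ± 0.05 was not called (adjusted p = 0.331). With library sizes alone in place of TMM scaling E2F1 stood at 0.35 and was called up. E2F8, an atypical repressor of the family, was not called (0.11 ± 0.08).

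Of the 4 chromatin and surveillance genes tested, 3 fell and none rose, where 33.7% of all tested genes fell and 37.6% rose. CHAF1A stood at 186, 163 and 162 CPM with A-485, against 291, 289 and 312 CPM untreated, a fall of 0.80 ± 0.06. Its partner CHAF1B fell by 0.66 ± 0.06, and DTL, which directs the destruction of CDT1 in S phase, fell by 0.56 ± 0.07. CLSPN, the checkpoint adaptor claspin, was not called (-0.10 ± 0.08).

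**Figure D3:**
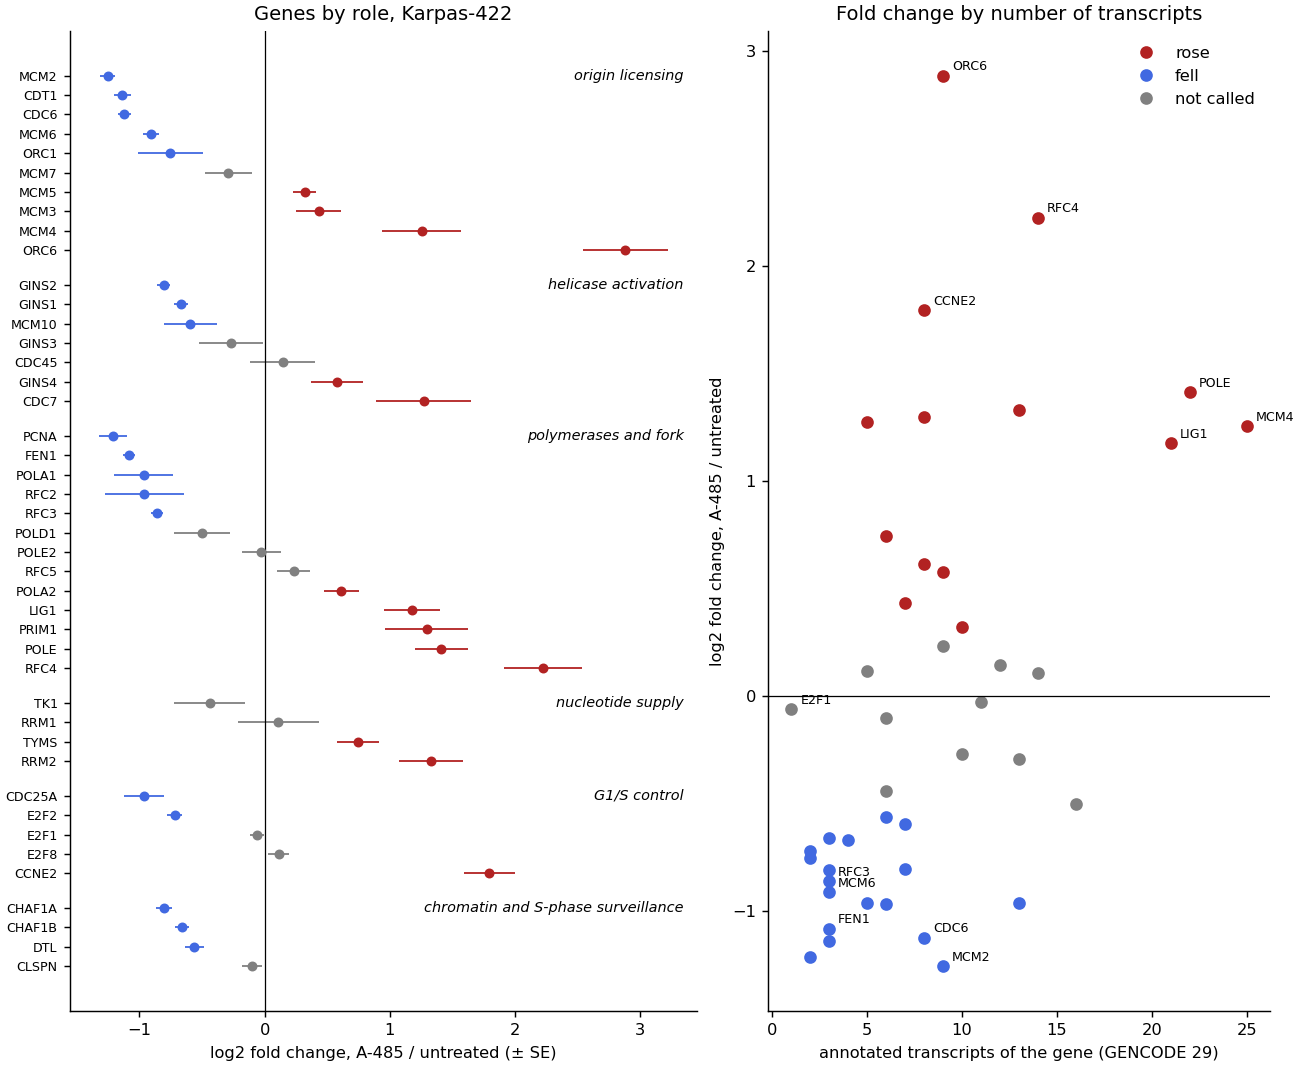
Log2 fold change, A-485 over untreated, of the 43 tested genes in Karpas-422. The left panel gives each gene with its SE under its role, and the right panel sets the same values against the number of annotated transcripts of the gene. Red points rose, blue fell and grey were not called. All genes with at most 3 transcripts lie below 0, with E2F1, at -0.06 (0.35 with library sizes alone), the highest of them.

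The number of annotated transcripts and the depth of a gene were looked at after the values were known and are given as descriptions. All 10 tested genes with at most 3 annotated transcripts had a negative log2 fold change, E2F1 excepted with library sizes alone, and 9 of them were called and E2F1 was not, with a median of -0.83. The 33 genes with more transcripts gave 14 rises and 9 falls (median 0.11). Over all genes, 32.1% rose and 40.2% fell with 1 to 3 transcripts (median -0.09), and 26.9% rose and 44.3% fell with 4 to 6 (median -0.18). With 7 to 10 transcripts 36.9% rose and 32.3% fell (median 0.10), and with more than 10, 51.4% rose and 21.1% fell (median 0.46). Spearman's rho between log2 fold change and number of transcripts was 0.53 over the 43 genes, which share the 6 libraries. By depth, the 23 genes with a mean count of at least 100 gave 5 rises and 13 falls, and the 20 tested genes below it 9 rises and 5 falls. Over all genes, 30.9% rose and 50.2% fell at a mean count of at least 100, and 43.6% rose and 19% fell below it, so direction went with depth over all genes too. A-485 also moved with the make-up of the libraries. Reads assigned to no annotated feature were 8.25% to 8.91% of reads with A-485 and 3.61% to 4.54% untreated. Whether they lie inside or outside genes is not settled here. Reads without a unique alignment were 48.8% to 49.0% with A-485 and 54.5% to 55.5% untreated. Genes listed as markers of other cells moved too: 5 T cell markers summed to 478 to 508 CPM with A-485 and 750.2 to 770.2 CPM untreated, mostly CD3G, with CD2 at 0. CD3D was lower with A-485 like CD3G, but CD247 was higher. Over library totals CD247 stood at 20.9 to 25.7 CPM with A-485 and 3.33 to 7.94 CPM untreated. The 5 epithelial or fibroblast markers summed to 153 to 168 CPM with A-485 and 447 to 471 CPM untreated, all of it DCN, with EPCAM, KRT8, KRT18 and COL1A1 at 0. The 5 myeloid markers summed to 5.78 to 7.32 CPM with A-485 and 2.36 to 4.97 CPM untreated, mostly CD33, with ITGAM at 0. The part of transcript number, depth, library make-up and marker levels in these results was not tested. With no scaling beyond library size, the median over all genes became 0.49, and 18 of the 43 genes were called up and 14 down (54.5% and 19.3% of all genes). The 14 that rose with TMM scaling still rose, 14 of the 18 that fell still fell, and DTL, MCM10, ORC1 and RFC2 were no longer called. In turn CLSPN, E2F1, E2F8 and RFC5 were called up. When 1 library was left out at a time, 28 of the 32 calls held each time, and ORC1, MCM3, MCM10 and GINS4 did not.

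The levels also moved with the number of transcripts. In RPKM, reads scaled by exonic length and library total, the 6 subunits of the MCM ring differed 304-fold between the lowest (MCM7, mean 1.38 RPKM) and the highest (MCM6, 420.1 RPKM) in Karpas-422 with A-485. In untreated Karpas-422 they differed 639-fold (MCM4, 0.930, to MCM6, 595 RPKM), and in WSU-DLCL2 with A-485 333-fold. In the deep libraries the span was 4.72-fold in the clones (MCM5, 36.2, to MCM4, 171 RPKM) and 5.39-fold in untreated WSU-DLCL2. The 4 RFC subunits spanned 1053-fold in Karpas-422 with A-485, 965-fold untreated and 230.2-fold in WSU-DLCL2 with A-485, but 1.68-fold in the clones and 1.79-fold in untreated WSU-DLCL2. MCM6 and RFC3 together held 46.5% to 47.5% of all counts of the 45 genes in Karpas-422 with A-485, 50.9% to 52.4% untreated, and 7.11% to 8.43% in the deep libraries. Both have 3 annotated transcripts, MCM4 has 25 and MCM7 has 13. Few transcripts did not always go with a high level. PCNA and ORC1, with 2 each, had means of 9.45 and 2.31 RPKM in Karpas-422 with A-485, against 318 and 41.2 RPKM in the clones. Spearman's rho between mean RPKM and number of transcripts over the 45 genes was -0.52 in Karpas-422 with A-485, -0.60 untreated and -0.52 in WSU-DLCL2 with A-485. It was -0.07 in the clones and -0.08 in untreated WSU-DLCL2. A low level in the shallow libraries is therefore not given as low expression, and the summed CPM of Karpas-422 rests largely on 2 genes.

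**Figure D4:**
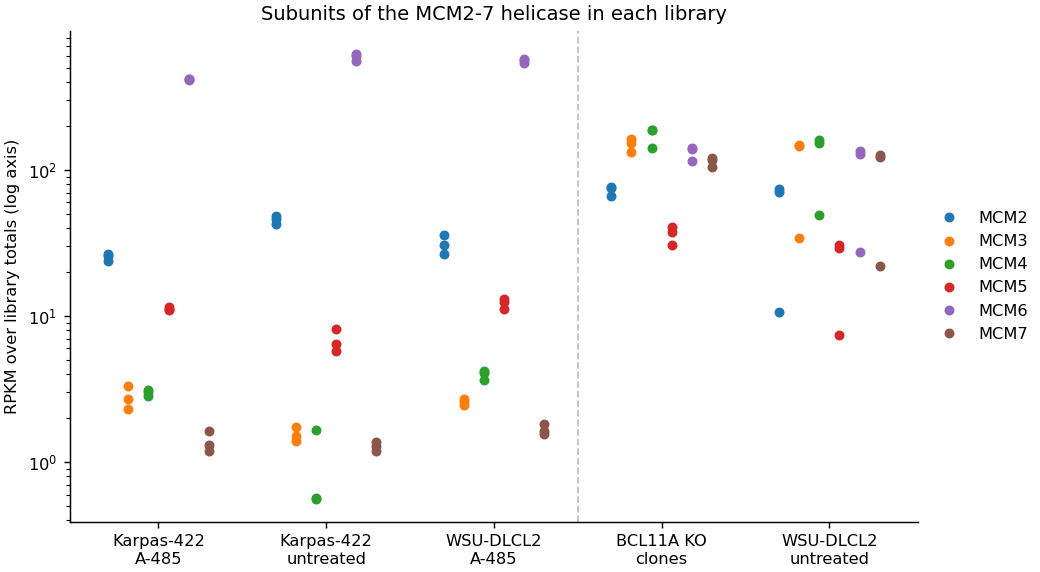
RPKM over library totals, on a log axis, of the 6 subunits of the MCM helicase in each library, 3 points per gene and group. Left of the dashed line, in the shallow libraries, MCM6 lies above the other 5 subunits in every library. Right of it the 6 lie within 4.72-fold (clones) and 5.39-fold (untreated) by their group means.

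Further genes of the same pathway, taken from lists chosen with earlier results known, showed both directions in Karpas-422. Of 29 other replication genes, 13 fell and 3 rose, among the falls RPA1 (-0.79 ± 0.06) and RPA2 (-0.82 ± 0.05), subunits of the single-strand binding protein, and the polymerase delta subunit POLD4 (-2.82 ± 0.19). Of 17 other G1/S control genes, 6 rose and 6 fell. RBL2, which encodes the E2F-binding RB relative p130, rose by 3.07 ± 0.15, the E2F partner TFDP1 fell by 1.05 ± 0.05, and cyclin A2 (CCNA2) fell by 0.89 ± 0.06. Of 15 other chromatin and checkpoint genes, 6 fell and 4 rose, with the histone chaperone ASF1A lowest at -1.48 ± 0.05. Of 8 other nucleotide genes, 3 fell and 2 rose. Of 22 G2/M genes, 10 rose and 4 fell, CDK1, the mitotic kinase, rising by 1.93 ± 0.11. The shares over all genes were 37.6% up and 33.7% down.

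The second comparison set the BCL11A knockout clones against untreated WSU-DLCL2. In the 3 clones none of the 45 genes was called against the 3 untreated libraries, and neither was any other of 16152 genes (0%) in the same edgeR test after Benjamini-Hochberg adjustment. An unadjusted p under 0.05 was found for 1117 genes, 0 of them among the 45, and DESeq2 called 315 genes, again 0 of the 45. The knockout could not be checked by RNA: BCL11A stood at 58.9, 68.3 and 53.0 CPM in the clones, against 46.9, 46.2 and 72.2 CPM in untreated WSU-DLCL2, and a deletion need not change the read count. All 45 log2 fold changes were above 0, between 0.03 (POLE) and 0.76 (FEN1), with a median of 0.44 against -0.01 over all genes.

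Without untreated replicate 3 the median of the 45 genes was 0.01. CDC45 stood at 82.9, 74.6 and 85.2 CPM in the clones, against 87.1, 86.5 and 4.16 CPM in untreated WSU-DLCL2. MCM2 stood at 368, 319 and 383 CPM in the clones, against 349, 368 and 51.5 CPM in untreated WSU-DLCL2. Replicate 3 was the lowest of the 6 libraries for all 45 genes. For PCNA the clones had 495, 425 and 487 CPM, against 468, 496 and 107 CPM in untreated WSU-DLCL2. The histone mRNA binder SLBP moved least, with 247, 192 and 262 CPM in the clones, against 217, 223 and 145 CPM in untreated WSU-DLCL2. Over the 45 genes, untreated replicate 3 stood at a median of 0.241 of the mean of replicates 1 and 2, from 0.0480 for CDC45 (20.8-fold lower) to 0.660 for SLBP. It was at most 0.25 of that mean for 28 of 45 genes (62.2%), against 4.4% of 16143 genes. The median ratio of all genes was 0.9998, that of 22 G2/M genes 0.419 and that of 30 other replication genes 0.474. After CDC45 the ratio was lowest for DTL (12.3-fold lower), CDT1 (9.72-fold) and TK1 (9.16-fold), and it was highest after SLBP for GINS3 and POLE. With 1 library this difference has no test, and it was known before the comparison was made.

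**Figure D5:**
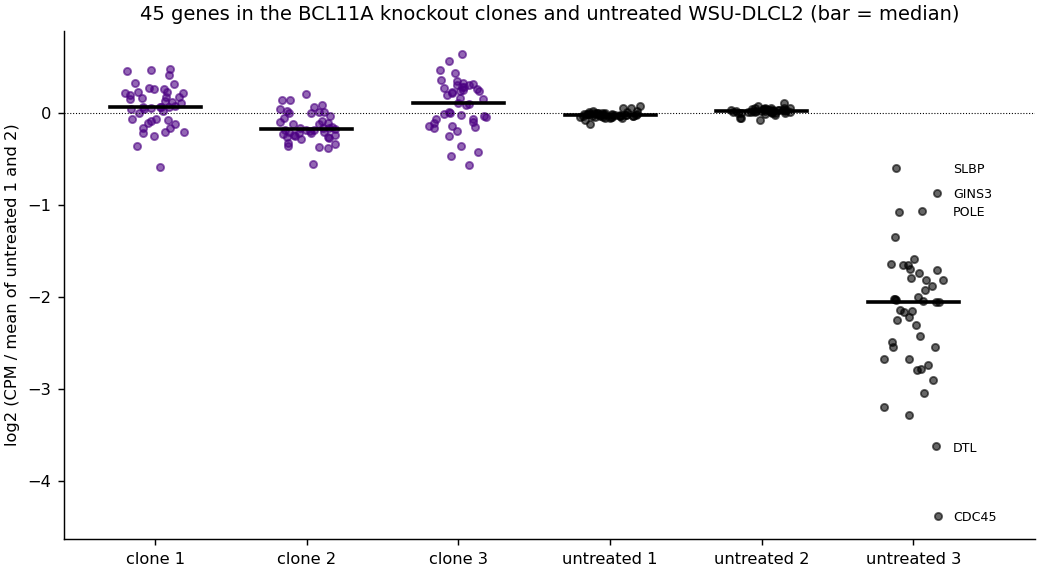
Log2 of the TMM-scaled CPM of each of the 45 genes over its mean in untreated WSU-DLCL2 replicates 1 and 2, one column of points per library with the clones at the left, bars marking medians. Clones 1 and 3 have medians of 0.06 and 0.11 and clone 2 of -0.18. Untreated replicate 3 has a median of -2.05, with all 45 genes below 0.

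Against untreated replicates 1 and 2 alone, 351 of 16607 genes were called (2.11%), 70 up and 281 down (0.422% and 1.69%), and none of the 45. An unadjusted p under 0.05 was found for 3150 genes and for 9 of the 45. DESeq2 called 1153 genes and, of the 45, CDT1 and RFC4, both down. The log2 fold changes of the 45 genes lay on both sides of 0, 23 above and 22 below, with a median of 0.01 and a range from -0.46 (CDT1) to 0.42 (CCNE1). Their libraries did not overlap for 20 genes, 6 higher and 14 lower in the clones, against 40.3% of all genes. The smallest adjusted p was 0.0872, for RFC4, at 104, 98.2 and 96.5 CPM in the clones, against 122 and 125 CPM in the 2 untreated libraries (-0.31 ± 0.07, SE). CDT1 stood at 47.3, 59.5 and 48.0 CPM in the clones, against 65.5 and 76.8 CPM untreated (-0.46 ± 0.13, adjusted p = 0.147). E2F1 stood at 124, 141 and 118 CPM in the clones, against 163 and 153 CPM untreated (-0.31 ± 0.09, adjusted p = 0.167). In these 3 genes every clone lay below both untreated libraries. RRM2 lay above, at 389, 384 and 413 CPM in the clones, against 337 and 361 CPM untreated (0.18 ± 0.07, adjusted p = 0.246). CCNE1, cyclin E1, did too, at 29.1, 24.1 and 31.0 CPM in the clones, against 20.7 and 21.3 CPM untreated (0.42 ± 0.13, adjusted p = 0.173). MCM2, CDC45 and PCNA stood at -0.01 ± 0.09, -0.10 ± 0.08 and -0.04 ± 0.09, and CCNE2 at 0.21 ± 0.16. Of the further genes of the pathway and the G2/M genes, 1 was called, WEE1, the kinase that inhibits CDK1 (-0.58 ± 0.06), named because it was the only one.

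The clones differed among themselves. Clone 2 was the lowest clone for 39 of the 45 genes (86.7%), against 35.8% of all genes, at a median of 0.864 of the mean of clones 1 and 3 (lowest 0.690, for FEN1 and RFC3, and above 1 for CDT1, E2F1 and PRIM1; all genes 1.01). For FEN1 the clones had 274, 202 and 311 CPM, and for MCM4 1306, 959 and 1327 CPM. Clone 2 was also the lowest clone for 23 of 30 other replication genes (76.7%), at a median ratio of 0.914. For 9 other nucleotide genes the share was 66.7% (median ratio 0.874). It was 64.7% for 17 other G1/S control genes (0.9085) and 66.7% for 15 other chromatin and checkpoint genes (0.881). For 22 G2/M genes the share was 31.8% and the median ratio 1.01. The order of the clones is thus not particular to the 45 genes. Without clone 2 and untreated replicate 3, 14 of the 45 genes were called up and 3 down, where 9.01% and 9.6% of 16221 genes were called up and down. CLSPN (0.45 ± 0.04), FEN1 (0.55 ± 0.07) and CCNE1 (0.52 ± 0.08) were among those up, and CDT1 (-0.58 ± 0.09), E2F1 (-0.39 ± 0.06) and RFC4 (-0.30 ± 0.06) were those down. Without clone 1 in place of clone 2, 0 were called up and 0 down, where 1.46% and 3.58% of all genes were. Without clone 3 it was again 0 and 0 (0.0914% and 0.469% of all genes). Leaving out the clone that was lowest for 39 of the 45 genes lifts their mean in the clones. The 14 calls are therefore not read as a rise of these genes. Leaving out untreated replicate 1 or 2 in addition to replicate 3 leaves 1 untreated library, whose spread is assumed to be that of the clones, and 1 of all genes was then called.

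The third comparison set the lines side by side under A-485, all in shallow libraries. Their make-up also differed between the lines: 14.1% to 14.6% of reads were not aligned in WSU-DLCL2, against 2.51% to 2.86% in Karpas-422, and 43.0% to 43.9% had no unique alignment, against 48.8% to 49.0%. The part of this in the results was not tested. WSU-DLCL2 with A-485 had more of 5 of the 10 licensing genes and of all 4 tested chromatin genes than Karpas-422 with A-485, and less RFC3 and E2F1. Of 44 tested genes, 16 were higher in WSU-DLCL2, 5 lower and 23 not called, where 34.3% of 12472 genes were called higher and 38.1% lower (72.4% in all). The median log2 fold change was 0.18, against -0.07 over all genes, and 24 of the 44 genes did not overlap, against 74.9% of all genes. GINS2 stood at 403, 405 and 417 CPM in WSU-DLCL2, against 202, 202 and 189 CPM in Karpas-422 (1.05 ± 0.05, adjusted p = 3.06e-12). FEN1 stood at 826, 807 and 835 CPM in WSU-DLCL2, against 477, 465 and 466 CPM in Karpas-422 (0.81 ± 0.04). MCM6 stood at 2442, 2259.7 and 2382 CPM in WSU-DLCL2, against 1679, 1704 and 1673 CPM in Karpas-422 (0.49 ± 0.04). For all 3 the lines were apart in every library. CHAF1A, CHAF1B, DTL and CLSPN, all 4 chromatin and surveillance genes tested, were higher, CHAF1B by 0.47 ± 0.05. MCM10 was higher by 0.69 ± 0.21, MCM2 by 0.36 ± 0.09 and E2F2 by 0.34 ± 0.05.

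RFC3 stood at 501, 454 and 487 CPM in WSU-DLCL2, against 1491, 1557 and 1509 CPM in Karpas-422 (-1.66 ± 0.05, adjusted p = 2.39e-15). E2F1 stood at 303, 418 and 372 CPM in WSU-DLCL2, against 659, 614 and 609 CPM in Karpas-422 (-0.78 ± 0.11, adjusted p = 0.000515). Both were lower in every WSU-DLCL2 library. POLE2, an accessory subunit of the leading-strand polymerase, was lower by 0.43 ± 0.16, and ORC6 and RFC4 were the other 2 genes called lower (-0.40 ± 0.08 and -0.28 ± 0.09). The 4 nucleotide supply genes, CDC45, PCNA and CCNE2 were not called. PCNA spread widely in WSU-DLCL2, with 6.50, 16.0 and 12.1 CPM, against 13.8, 12.8 and 14.1 CPM in Karpas-422. When 1 library was left out at a time, 16 of the 21 calls held each time, and MCM5, POLA1, POLE, POLE2 and RFC4 did not. The Karpas-422 libraries with A-485 also served the first comparison, so the directions are not independent between them. Side by side, 12 of the 18 genes that fell with A-485 in Karpas-422 were higher in WSU-DLCL2 with A-485, 5 were not called and RFC3 was lower. The same share over all genes that fell in Karpas-422 was not computed, so this count is not read as particular to these genes. No shallow untreated WSU-DLCL2 library was used, so whether A-485 acted differently in the lines was not tested.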

How the data were processed

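Total RNA of the 2 lines was sequenced, and the authors deposited raw read counts per gene, 1 table per library. The submitters' processing notes name STAR 2.5.3a, RSEM and GRCh37 (hg19). The counter, kit and strand were not stated, so reads of overlapping or antisense genes cannot be told apart. GENCODE 29 and a table of gene names gave symbols for 52526 of 63677 identifiers (the 11151 others held 0.862% of counts), and GENCODE 29 gave transcript numbers and exonic lengths. The 5 summary lines per table (27.3% to 70.2% of reads) stayed out. Counts are reads, and the SE and p-values rest on counting error and on spread among the libraries compared, which may be technical only.

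Fits used edgeR 4.0.16 in R 4.3.3, with filterByExpr per comparison, TMM scaling and robust, two-sided quasi-likelihood tests. P-values were adjusted by Benjamini-Hochberg over all genes kept, with a threshold of 0.05. The SE is the log2 fold change over the square root of F. Alternatives were other scalings, no filter, DESeq2 1.42.0, a replicate block and leaving out each library. The scripts were tested on simulated data. No replicate pair was counted as 1 sample. The genes and lists were chosen with earlier results of these data known. The genes named with full values were, per comparison, the smallest p of each role with a call, the 3 largest rises and 3 largest falls, and MCM2, CDC45, PCNA, RRM2, E2F1 and CCNE2; others were chosen after their values were seen.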

Additional observations from a re-analysis of the deposited data

How the results depend on the processing

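In Karpas-422, the counts of 14 genes up and 18 down stayed within 1.5 times under every alternative run, with 12 to 16 up and 17 to 19 down when 1 library was left out. Without untreated replicate 1 the folds of ORC6, RFC4, MCM4 and PRIM1 moved by over 1.5 times, to 11.7, 7.52, 3.89 and 3.77. When 1 library was left out CDC45 ranged from -0.080 (without untreated replicate 2) to 0.56, and E2F1 turned to 0.35 with library sizes alone; the cause was not tested. In the clones, leaving out 1 library gave ranges of -0.0057 to 0.83 for MCM2, -0.099 to 0.82 for CDC45, -0.037 to 0.70 for PCNA and -0.31 to 0.49 for E2F1, each lowest without untreated replicate 3. Without that replicate 351 genes were called in place of 0, while no filter gave 20 and DESeq2 315. Against untreated replicates 1 and 2, 0 to 14 of the 45 genes were called up and 0 to 3 down when 1 library was left out. No filter called 1 down (CDT1) and DESeq2 2 down. MCM2 ranged from -0.070 to 0.068, the highest without clone 2, and was 0.033 without untreated replicate 2. PCNA ranged from -0.098 to 0.028, again highest without clone 2, and was 0.0050 without untreated replicate 2. All genes called numbered 835 with no filter, 1153 with DESeq2, 825, 3020 and 92 without clones 1, 2 and 3 in turn, and 1 without either untreated replicate, where the lone untreated library is assumed to vary like the clones. Between the lines, DESeq2 called 3 down (ORC6, E2F1 and RFC3) in place of 5, and 13 to 17 were up and 4 to 5 down when 1 library was left out. PCNA ranged from -0.47 to 0.069 (without WSU-DLCL2 replicate 1). RRM2 ranged from -0.058 (without WSU-DLCL2 replicate 3) to 0.46, and was -0.014 without Karpas-422 replicate 1.

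The labels do not say whether replicate numbers pair the samples. Deviations of same-numbered libraries correlated at -0.043 to 0.064 in Karpas-422, 0.031 to 0.226 in the clones and -0.182 to -0.0035 between the lines. With so few libraries per group these values cannot decide whether the numbers pair them. With a replicate block 13 genes were up and 18 down in Karpas-422, 0 were called in the clones, and 14 were up and 5 down between the lines. Depth limits the shallow libraries: in Karpas-422, 22 of the 45 genes had a mean count under 100.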
